A study of Mus musculus with 2 samples.

Results

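Cells with transcripts of Wnt2, Osr1 and Tbx5 together were taken from single-cell RNA profiles of mouse embryos at embryonic day 9.5 (E9.5). A cell was taken when it held at least 1 unique molecular identifier (UMI, 1 counted transcript) of each of the 3 genes and when 7 heart muscle genes (Tnnt2, Myl4, Actc1, Ttn, Myh6, Myh7 and Myl7) together made up less than 1% of its UMIs. Of 16780 cells that passed a filter on detected genes and mitochondrial UMIs, 1037 met the rule. The library labelled Ctrl gave 524 of its 7007 cells, and the library labelled cKO gave 513 of its 9773. They are called cardiopulmonary progenitor-like cells here, or progenitor-like cells for short. Embryos of both groups were on the Swiss Webster strain and carried Mesp1Cre, a driver that acts in early mesoderm, with 1 copy of a Rosa26-GFPflox reporter, which marks the cells in which the driver has acted and their descendants. The cKO group also carried Tbx1flox/flox, so the driver should remove a part of Tbx1 in this lineage. The pharyngeal apparatus with the heart was dissociated, and its GFP-positive, DAPI-negative cells were profiled with a droplet method that counts the 3′ ends of transcripts. Each group was 1 library from pooled embryos, and the cKO pool was slightly older by somite count, so genotype, stage, pool and library cannot be told apart. No difference between the libraries has a replicate check, and no test was made. Intervals are given at 95% and account for the error of counting alone.

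Cardiopulmonary progenitors lie in the splanchnic mesoderm behind the heart, between the inflow pole and the ventral foregut. They give rise to muscle of the atria and the venous inflow and to the mesenchyme, smooth muscle and vessels of the lung. They receive Sonic hedgehog from the foregut endoderm, which switches on Ptch1, Gli1 and Foxf1 in mesoderm, and they send Wnt2 and Wnt2b back to the endoderm, where these ligands are needed for the lung fate. Tbx5, a T-box factor of the posterior second heart field, is required for this Wnt signal, and Osr1 is a zinc finger factor of the same field and of lung mesoderm. Retinoic acid made by Aldh1a2 patterns the field from behind. None of this is a result of these libraries.

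The matrices held 7418 and 10281 cells with 132017331 and 162874391 UMIs, and 15 cell barcodes occurred in both. The progenitor-like cells held 12491521 UMIs in the library labelled Ctrl and 11717286 in the library labelled cKO, so that the upper limit behind a gene with 0 UMIs, 3 counts, was worth 0.240 and 0.256 CPM (UMIs of a gene scaled to a common total of all UMIs in the set of cells). Their median depth was 21246 and 18143 UMIs per cell, against 17076 and 14515 UMIs in the other filtered cells. Tbx1, the gene targeted in the cKO (ENSMUSG00000009097; chromosome 16 of GRCm38, 18580979 to 18590671), stood at 10.2 CPM (8.48 to 12.1) in the progenitor-like cells labelled Ctrl and at 16.9 CPM (14.6 to 19.4) in those labelled cKO, a log2 ratio of 0.73 (0.40 to 1.07). In the other cells the Tbx1 values were 28.7 and 46.2 CPM. Tbx1 counts were therefore higher in the library labelled cKO. A 3′ tag can lie outside the part removed by the driver, so these counts do not check the deletion. Higher and lower always describe the library labelled cKO with Ctrl as its reference, unless other cells are named, and paired values give the library labelled Ctrl first.

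Among the filtered cells, the share of progenitor-like cells was 7.48% (6.87 to 8.12) under the label Ctrl and 5.25% (4.82 to 5.71) under the label cKO, which differ by −2.23 points (−3.0 to −1.48). The rule is what sets these shares, so its steps are given as a description. Wnt2, the Wnt ligand, had a UMI in 36.2% and 34.2% of filtered cells. Osr1 had one in 22.0% and 19.1%, and Tbx5 in 27.8% and 22.4%. The gap was −5.39 points (−6.73 to −4.06) for Tbx5 and −1.98 points (−3.45 to −0.52) for Wnt2. The order of the gaps differed between the sexes, with 0.12, −3.96 and −3.61 points for Wnt2, Osr1 and Tbx5 in Xist cells and −6.55, −0.47 and −9.09 points in Y-linked cells. Among the pairs, Osr1 with Tbx5 stood at 11.8% and 8.27%, Wnt2 with Tbx5 at 19.7% and 16%, and Wnt2 with Osr1 at 10.7% and 9.01%. All 3 genes were found in 550 and 571 cells, 7.85% and 5.84%.

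**Figure D1:**
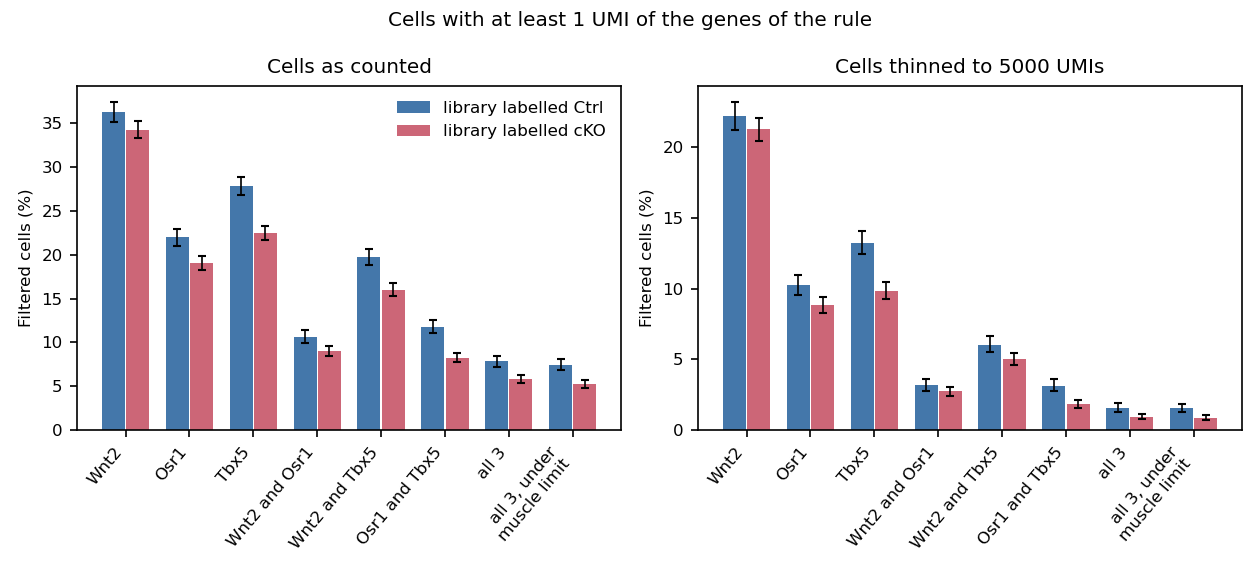
The bars give the percentage of filtered cells in each library that held at least 1 UMI of Wnt2, Osr1 and Tbx5, of each pair and of all 3, and that also stayed under the muscle limit, with exact 95% binomial intervals. The left panel uses cells as counted and the right panel cells thinned to 5000 UMIs, where the last step is 1.53% in the library labelled Ctrl and 0.858% in the library labelled cKO.

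Because finding 3 transcripts in 1 cell depends on depth, every cell was thinned to 5000 UMIs and the rule applied again. It then took 106 of 6934 cells labelled Ctrl, 1.53%, and 83 of 9673 cells labelled cKO, 0.858%, a difference of −0.671 points (−1.03 to −0.338). The direction was the same as in the unthinned cells. Within each library the share was larger in deeper cells, from 2.14% in the tenth of cells with fewest UMIs to 16.5% in the tenth with most in the library labelled Ctrl, and from 1.12% to 13.1% in the library labelled cKO.

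Droplets that caught more than 1 cell can also join transcripts of different cells. Both libraries held cells with Xist and cells with Y-linked transcripts, so a barcode with at least 2 UMIs of Xist and at least 2 of the Y-linked genes can mark such a droplet. These barcodes were 9.73% (7.33 to 12.6) and 12.9% (10.1 to 16.1) of the progenitor-like cells, Ctrl first, against 2.96% and 3.46% of the other cells. Barcodes with transcripts of both sexes were therefore the larger share among the progenitor-like cells, which were also the deeper cells. With these barcodes and the deepest 5% of cells left out, the shares of progenitor-like cells were 6.70% and 4.46%. In cells with Xist UMIs and no Y-linked UMI they were 6.47% and 4.43%, and in cells with Y-linked UMIs and no Xist UMI 7.82% and 5.29%, so the share labelled cKO was the lower in both sexes.

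The muscle limit removed 26 of the 550 cells with all 3 genes in the library labelled Ctrl, 4.73% (3.11 to 6.85), and 58 of 571 in the library labelled cKO, 10.2% (7.80 to 12.9). That is a difference of 5.43 points (2.37 to 8.55). The cells just inside the limit held 0.998%, 0.966% and 0.897% of their UMIs in the 7 muscle genes in the library labelled Ctrl and 0.994%, 0.943% and 0.813% in the library labelled cKO. The cells just outside held 1.02%, 1.08% and 1.14%, and 1.0%, 1.01% and 1.03%. Few progenitor-like cells came near the limit, since 93.1% and 86.2% of them were under 0.1%, and 22.5% and 13.8% held no UMI of the 7 genes. In Y-linked cells the removed share was 1.84% and 10.1%, and in Xist cells 6.97% and 9.47%, where the difference of 2.5 points had an interval from −2.41 to 7.37.

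Markers that the rule did not use are given next. They were named with the label and chosen with earlier results known, so they describe the cells and are no independent check. Rspo2 (ENSMUSG00000051920; GRCm38 chromosome 15, 43020788 to 43171594), a secreted R-spondin that strengthens Wnt signalling, stood at 32.5 CPM (29.4 to 35.8) in progenitor-like cells labelled Ctrl and 13.8 CPM (11.8 to 16.1) in those labelled cKO. The other cells held 4.85 and 3.90 CPM of Rspo2, so that the progenitor-like cells were 6.71-fold and 3.55-fold higher. Gata5 (ENSMUSG00000015627; chromosome 2, 180325088 to 180335503), a zinc finger factor of early heart mesoderm, stood at 53.1 CPM (49.1 to 57.3) and 51.7 CPM (47.7 to 56.0), against 17.7 and 20.7 CPM elsewhere. Both markers were therefore higher in the progenitor-like cells than in the rest of each library. After thinning, Rspo2 was found in 13.7% (10.9 to 17) and 6.43% (4.47 to 8.92) of the progenitor-like cells, where endothelial cells, taken as cells with Cdh5, Pecam1 and Kdr, held it in 0% (0 of 221 cells, which allows up to 1.36%) and 1.01%. Unthinned, the Rspo2 shares were 33.4% and 23.4%. Gata5 was found in 21.2% and 20.7% after thinning and in 55.0% and 54.6% without it, against 9.95% and 9.05% of thinned endothelial cells, which may carry Gata5 themselves. Median depths of the endothelial cells were 17847 and 15544 UMIs.

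Further genes of the field were present as well. Foxf1, a forkhead factor of gut and lung mesoderm, was found in 64.3% and 54.6% of thinned progenitor-like cells and in 3.17% and 4.02% of endothelial cells. Isl1, a LIM homeodomain factor of the second heart field, was found in 40.3% and 32.0%, against 3.17% and 4.02%. Gli1, a hedgehog effector, was found in 7.06% and 4.87%, against 0.452% and 0.503%. Nkx2-5, a homeodomain factor of the heart, was found in 7.44% and 7.60%, against 0.905% and 0.503%. All of these shares lay above the endothelial background and, by less, above the other filtered cells. After thinning, those cells held Foxf1 in 17.9% and 16.1%, Isl1 in 21.7% and 16.3%, Gli1 in 3.06% and 1.78%, and Nkx2-5 in 3.03% and 4.25%. Of genes of the foregut endoderm, Shh, Ihh and Nkx2-1 had 0 UMIs in the progenitor-like cells of both libraries, and Cdh1, the epithelial cadherin, had 2 and 0 UMIs. Epcam, an epithelial adhesion protein, was found in 9.73% and 6.63% of them, and in 2.67% and 2.34% after thinning, against 0.905% of endothelial cells labelled Ctrl and 0 of 199 labelled cKO, which allows up to 1.51%. Tbx4, a T-box gene of later lung mesenchyme, had 18 and 4 UMIs. Wnt2b stood at 2.16 and 2.22 CPM, against 0.496 and 0.412 CPM in the other cells. The mesoderm markers given as shares were thus higher in the progenitor-like cells, while Tbx4 and Wnt2b counts were low. Why they were low was not tested.

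Against all other filtered cells, 2651 genes could be compared, those with at least 50 CPM and 30 UMIs in the progenitor-like cells of both libraries, the genes of the rule left out. Of these, 12 genes, 0.453%, were at least 2-fold higher in both libraries, and 0 genes, 0%, were at least 2-fold lower in both. The filter on level in the progenitor-like cells themselves removes genes that are low there, so nothing is read from the 0. The 12 were Wnt4, Cxcl13, Arl4a, Foxf1, Sparcl1, Aldh1a2, Rspo1, Gata5, Unc5c, Bmp4, Ptch1 and Plpp3. Since the rule chose the cells, these ratios describe which genes go along with Wnt2, Osr1 and Tbx5. Wnt4, a Wnt ligand of lung and kidney mesenchyme, stood at 78.3 CPM (73.5 to 83.4) and 98.6 CPM (93.0 to 104), against 19.8 and 20.3 CPM, ratios of 3.94 and 4.87. Cxcl13, a chemokine, stood at 173 CPM (166 to 180) and 112 CPM (106 to 118), ratios of 5.42 and 3.73. Arl4a, a small GTPase, stood at 199 CPM (191 to 207) and 152 CPM (145 to 159), ratios of 4.21 and 3.61. These 3 genes led when genes were ordered by the smaller of their ratios in the libraries.

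Foxf1 stood at 232 CPM (223 to 240) and 177 CPM (170 to 185), 3.81 and 3.53 times its level in the other cells. Sparcl1, a secreted matrix-associated protein, stood at 123 and 95 CPM, with ratios of 3.69 and 2.92. Aldh1a2 stood at 227 and 163 CPM, with ratios of 2.86 and 3.67. Each of these ratios was over 2 in both libraries. Unc5c, a netrin receptor, stood at 102 and 58.5 CPM, with ratios of 3.09 and 2.31, and Bmp4, a BMP ligand, at 124 and 92.4 CPM, with ratios of 2.30 and 2.29. Plpp3, a membrane phosphatase of lipid signals, stood at 198 and 139 CPM, with ratios of 2.19 and 2.28. The next 8 genes by the smaller of both ratios were Dpysl3, Chd3, Foxp2, Foxp1, Isl1, Hsd11b2, Snrpn and Runx1t1, whose log2 ratios lay between 0.83 (Runx1t1, library labelled cKO) and 1.35 (Dpysl3, library labelled Ctrl). Without presumed doublets, 36 of the ratios of the leading genes left their intervals, 4 stayed inside and 0 turned.

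**Figure D2:**
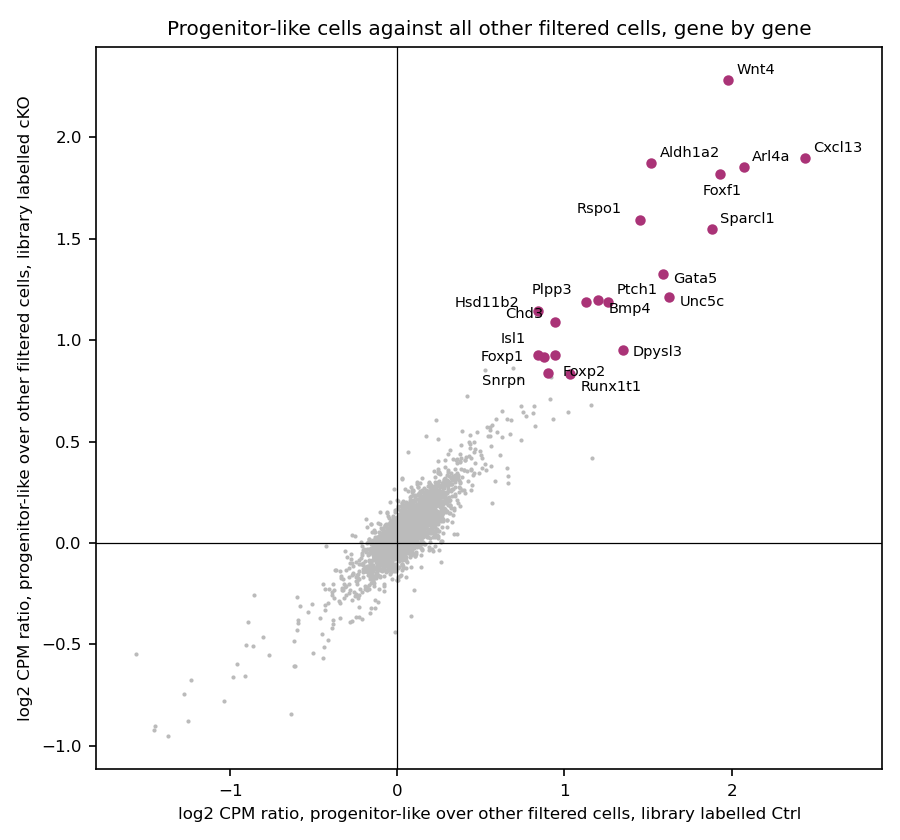
Each point is 1 of 2651 genes, with the log2 CPM ratio of progenitor-like over other filtered cells in the library labelled Ctrl on the horizontal axis and in the library labelled cKO on the vertical axis, and the 20 leading genes in purple. Wnt4, Cxcl13, Arl4a and Foxf1 stand at the upper right, between 1.82 and 2.44 in each library, and most genes lie near 0.

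Some genes under the level needed for this comparison had ratios as large. Nkx6-1, a homeodomain factor, stood at 46.0 CPM (42.3 to 49.9) and 23.7 CPM (21.0 to 26.7), against 5.57 and 3.56 CPM in the other cells, log2 ratios of 3.04 and 2.74. Hhip, a membrane protein that binds hedgehog ligands and is induced by them, stood at 20.8 and 9.56 CPM, with log2 ratios of 1.79 and 1.57, and Gli1 stood at 15.5 and 10.5 CPM, with log2 ratios of 1.29 and 1.53. Of the genes that the hedgehog pathway induces, Ptch1, Gli1, Hhip and Foxf1 were higher here than in the other cells. Gli2 and Gli3, the factors that carry the signal, and Smo, its transducer, differed little, with log2 ratios of 0.05 and 0.03, 0.13 and 0.04, and 0.28 and 0.30. Gas1 and Cdon, co-receptors of hedgehog, were lower, with log2 ratios of −0.90 and −0.51 for Gas1 and −0.80 and −0.81 for Cdon.

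Wnt pathway genes are given by role. Among the ligands and their R-spondin amplifiers, Wnt4, Wnt2b, Rspo1 and Rspo2 were higher than in other cells, while Rspo3 had log2 ratios of 0.38 and 0.02. Wnt5a, a ligand of the non-canonical arm, had −0.45 in the library labelled Ctrl and 0.38 in the library labelled cKO. Among the receptors, Fzd7 had 0.44 and 0.36, Fzd2 −0.08 and −0.05, and Lrp6 0.17 and 0.09. Lef1, which is both a nuclear effector and a target of canonical Wnt signalling, had −0.50 and −0.20, and Axin2, a general target, stood at 17.1 and 7.85 CPM with 0.27 and 0.01.

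Transcription factors of the heart field were also set beside the other cells. Gata4 had log2 ratios of 1.24 and 0.74, Gata6 of 0.67 and 0.54, and Nr2f2, an orphan receptor of atrial and venous tissue, of 1.02 and 0.64. Hand1, Hand2 and Tbx18 were lower in the progenitor-like cells, with log2 ratios of −1.16 and −1.36, −0.56 and −0.59, and −0.49 and −0.45. Of the Hox genes, Hoxa4 had 0.87 and 0.59, Hoxb4 0.39 and 0.55 and Hoxb1, which marks the posterior second heart field, 0.44 and 0.36, while Hoxb6 had −1.49 and −1.81. Msc, a helix-loop-helix factor best known from branchiomeric muscle, was higher, at 33.5 and 22.8 CPM against 11.6 and 14.6 CPM, whereas its partner in that muscle, Lhx2, was lower, with −1.92 and −1.42.

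To see what each gene of the rule brings, cells that held 2 of the 3 genes and passed the muscle limit were read in the same way. They numbered 271 and 234 for Osr1 and Tbx5 without Wnt2, 196 and 298 for Wnt2 and Osr1 without Tbx5, and 721 and 765 for Wnt2 and Tbx5 without Osr1. Wnt4 was highest without Wnt2, at 156 and 190 CPM, intermediate in the progenitor-like cells, and lowest without Osr1, at 18.4 and 20.9 CPM. Cxcl13, Foxf1 and Ptch1 had the same order, with 194 and 194, 286 and 236, and 267 and 150 CPM without Wnt2 and 40.9 and 32.8, 54.9 and 49.3, and 62.9 and 42.0 CPM without Osr1. Nkx6-1 stood at 44.5 and 29.6 CPM without Wnt2, near its level in the progenitor-like cells, and at 8.66 and 5.09 CPM without Osr1. These genes were therefore low where Osr1 was missing and not where Wnt2 was missing.

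Rspo2, Gata5, Bmp4 and Unc5c had another pattern. Rspo2 stood at 4.86 and 4.67 CPM without Wnt2, 11.4 and 12.7 CPM without Tbx5 and 13.8 and 9.24 CPM without Osr1, against 32.5 and 13.8 CPM in the progenitor-like cells. Gata5 stood at 10.8 and 11.9 CPM without Wnt2 and at 31.9 and 38 CPM without Osr1. Gata4 stood at 13.8 and 11.0 CPM and at 47.3 and 48.4 CPM in the same sets, against 57.3 and 38.9 CPM in the progenitor-like cells. Without Wnt2, the levels of all 3 genes were therefore well under those of the progenitor-like cells. Bmp4 stood at 43.6 and 31.3 CPM without Wnt2, and Unc5c at 35.7 and 26.6 CPM. The cells without Osr1 differed in other genes as well: Tbx18, a factor of the sinus venosus and epicardium, stood there at 75.4 and 79.1 CPM, against 22.4 and 18.9 CPM in the progenitor-like cells, and Wt1, a mesothelial factor, at 31.6 and 24.5 CPM, against 6.88 and 4.78 CPM.

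Related kinds of mesoderm were set apart by other genes. Cells with Barx1 and Foxf1 that were not progenitor-like, taken as foregut mesenchyme, numbered 522 and 848. Barx1, a homeobox gene of the stomach mesenchyme, was used to pick these cells, so its high level there was set by that choice. It stood there at 697 and 665 CPM and at 41.6 and 44.9 CPM in the progenitor-like cells. Isl1, which did not pick them, stood at 194 and 148 CPM against 138 and 94.3 CPM. Cells with Cldn11 or Nkx6-1 that were not progenitor-like, taken as posterior heart field, numbered 852 and 840. They shared with the progenitor-like cells the levels of Aldh1a2 (227 and 160 CPM against 227 and 163 CPM), Wnt4 (92.9 and 109 CPM against 78.3 and 98.6 CPM) and Rspo1 (48.3 and 43.5 CPM against 50.2 and 54.6 CPM), and had less Gata5 (8.38 and 11.4 CPM), Gata4 (10.2 and 10.5 CPM) and Bmp4 (40.5 and 32.7 CPM). The progenitor-like cells thus had levels of the posterior field for Wnt4 and Aldh1a2 together with GATA factor levels above it.

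**Figure D3:**
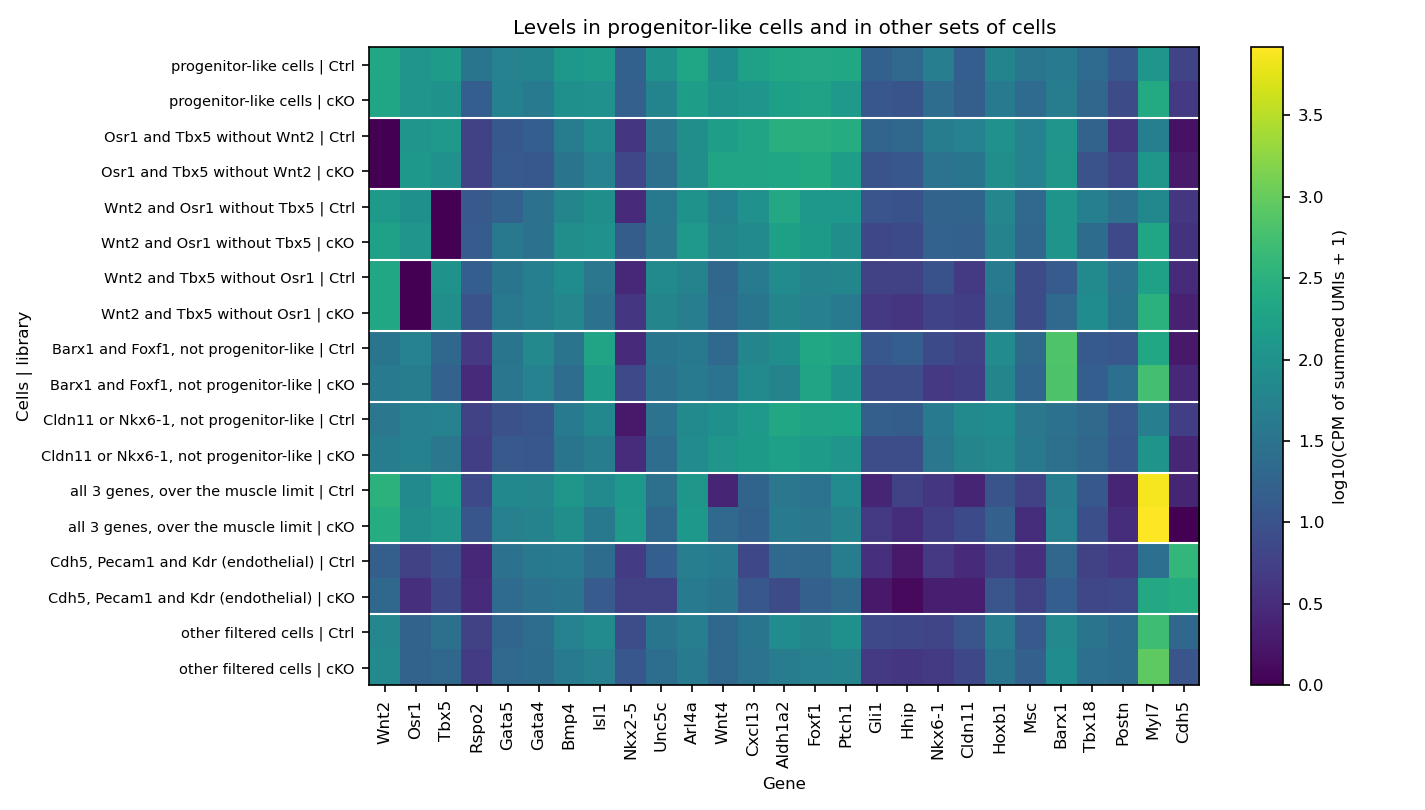
Colour gives log10(CPM + 1) of 27 genes (horizontal) in the progenitor-like cells and 8 other sets of cells (vertical), each set with its library labelled Ctrl above and cKO below. Rspo2 is brightest in the progenitor-like cells labelled Ctrl, at 32.5 CPM, and Wnt4 in cells with Osr1 and Tbx5 but no Wnt2, at 156 and 190 CPM. Barx1 is brightest in the cells picked for Barx1 and Foxf1, as that choice sets.

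The progenitor-like cells were not uniform. A UMI of Nkx2-5 was found in 107 of 524 cells labelled Ctrl (20.4%) and in 100 of 513 labelled cKO (19.5%), at near-equal depth to the cells without it (medians of 20177 and 21532 UMIs, and of 18101 and 18314 UMIs). Cells with Nkx2-5 had more of other heart field genes. Mef2c, a MADS-box factor of the heart field, stood at 246 CPM with Nkx2-5 and 46.6 CPM without it in the library labelled Ctrl, a log2 ratio of 2.40 (2.22 to 2.57), and at 260 and 54.2 CPM in the library labelled cKO, 2.26 (2.09 to 2.44). Myocd, a cofactor of muscle genes, had log2 ratios of 3.03 (2.66 to 3.42) and 2.50 (2.09 to 2.92), and Tbx20 of 2.39 (2.03 to 2.75) and 2.21 (1.71 to 2.70). Sfrp5, a secreted Wnt inhibitor of the inflow region, had 2.41 and 1.82. Every one of these genes stood higher with Nkx2-5 in both libraries. Hand2, Gata6, Gata5, Gata4 and Bmp4 followed, with log2 ratios between 1.05 (Gata4, library labelled Ctrl) and 1.71 (Hand2, library labelled cKO).

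Other genes stood lower in cells with Nkx2-5. Wnt4 was at 11.3 CPM with Nkx2-5 and 95.7 CPM without it in the library labelled Ctrl, a log2 ratio of −3.09 (−3.67 to −2.55), and at 28.6 and 116 CPM in the library labelled cKO, −2.02 (−2.40 to −1.66). Nkx6-1 was at 10.5 and 55.2 CPM, −2.39 (−3.01 to −1.84), and at 6.84 and 27.9 CPM, −2.03 (−2.86 to −1.30). Hoxb1 had −2.06 and −1.05, Msc −2.03 and −1.79, Cxcl13 −1.92 and −1.50, Hoxa5 −1.47 and −1.20, and Rspo3 −1.36 and −1.44. Aldh1a2 and Foxf1 were lower too, by less, with −1.02 and −0.91, and −0.72 and −0.60. Of the 3 genes of the rule, Wnt2 was higher with Nkx2-5, with 0.74 and 0.62, while Osr1 had 0.14 and 0.26 and Tbx5 0.24 and 0.06. Ptch1 had 0.26 and −0.03. Muscle genes of the rule were higher with Nkx2-5 even under the limit, such as Tnnt2 with 2.88 and 2.19 and Myl7 with 1.86 and 1.58.

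Splitting by Nkx6-1, a choice made after its values had been seen, turned the direction of many of these genes. It was found in 234 cells labelled Ctrl and 150 labelled cKO. Cells with Nkx6-1 had more Wnt4 (log2 ratios of 1.39 and 0.96), Msc (1.76 and 1.37), Cxcl13 (1.04 and 1.35), Hhip (1.55 and 0.84) and Foxf1 (0.72 and 0.69). They had less Nkx2-5 (−2.75 and −2.36), Hand2 (−2.32 and −2.02), Mef2c (−2.14 and −1.44), Sfrp5 (−3.19 and −1.50) and Barx1 (−1.98 and −1.58). The CPM of Barx1 was lower with Nkx2-5 as well (−0.41 and −0.45). By cells, Nkx2-5 was found in 25.8% of those with Barx1 and 19.2% of those without it under the label Ctrl, and in 16.5% and 20.3% under the label cKO. In the library labelled Ctrl the Nkx6-1 cells were deeper, with medians of 23598 UMIs against 19688, while in the library labelled cKO the depths were 18109 and 18209 UMIs. Rspo2 had log2 ratios of 1.5 with Nkx2-5 and −0.99 with Nkx6-1 in the library labelled Ctrl, and of 0.62 (0.10 to 1.13) and 0.17 (−0.34 to 0.66) in the library labelled cKO.

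**Figure D4:**
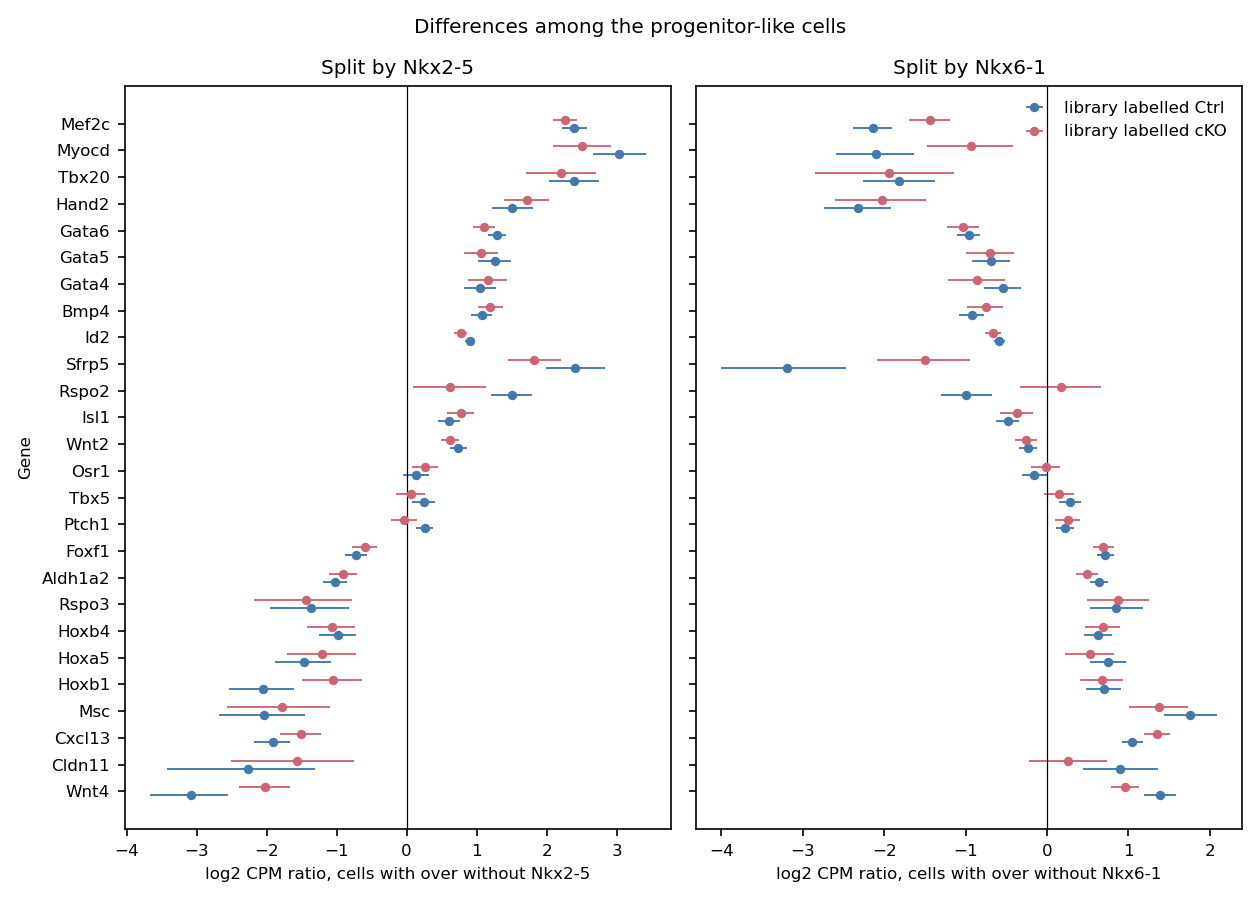
Points give the log2 CPM ratio of progenitor-like cells with a UMI of Nkx2-5 (left) or Nkx6-1 (right) over those without it, for 26 genes in each library, and lines are exact 95% intervals of the ratio. Mef2c, Myocd, Tbx20 and Hand2 lie to the right in the left panel and to the left in the right panel, and Wnt4, Msc and Cxcl13 the other way round.

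A UMI of Barx1 was found in 97 and 109 progenitor-like cells, 18.5% and 21.2%, and in 9.16% and 8.97% after thinning. Barx1 UMIs were concentrated, since the 10 cells with most held 56.0% and 50.8% of them. Cells with Barx1 were the deeper ones (medians of 22893 and 21771 UMIs against 20581 and 17740) and held both sexes' transcripts in 15.5% and 25.7%, against 8.43% and 9.41% of cells without Barx1. They had more Ackr3, a chemokine scavenger (log2 ratios of 0.95 and 0.91), and less Nkx6-1 (−0.63 and −0.96) and Sparcl1 (−0.85 and −0.55). Markers of other cell types moved with Barx1 in part, with log2 ratios for the muscle actins Actc1 (0.90 and 1.18) and Acta2 (0.85 and 0.43) and for the endothelial genes Emcn (2.05 and 0.66, the latter from −0.03 to 1.33) and Cdh5 (1.49 and 0.04, the latter from −1.10 to 1.07). The part of droplets with more than 1 cell in these differences was not tested.

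Between the libraries, 3152 genes had at least 50 CPM and 30 UMIs in the progenitor-like cells of either library, leaving out the genes of the rule, with its 7 muscle genes, and mitochondrial, ribosomal protein, haemoglobin, Xist and Y-linked genes. Of these, 11 genes (0.349%) were at least 2-fold higher in the library labelled cKO and 12 (0.381%) at least 2-fold lower, and the median log2 ratio of all 3152 was −0.05. These counts depended on the settings, with 27 higher and 91 lower after thinning, 43 and 78 for genes from 10 CPM and 10 UMIs, and 2 and 1 by the mean over cells of log2(CP10k + 1). All 23 had the same sign in cells with Xist and in cells with Y-linked transcripts. These cells make up most of the sums that picked the 23, so this was close to set in advance and is no check. In the other filtered cells, 13 of the 23 were also past 2-fold in the same direction, 6 of the higher and 7 of the lower genes. The greater number of these genes thus differed alike in the rest of the libraries. Ubb, a ubiquitin gene, stood at 105 CPM (99.5 to 111) and 894 CPM (877 to 911), a log2 ratio of 3.09, and at 3.15 in the other cells. Within the library labelled cKO, Ubb was at 1325 CPM in Xist cells and 325 CPM in Y-linked cells, while the values in the library labelled Ctrl were 104 and 104 CPM. Tpm3-rs7, a retrogene that shares sequence with Tpm3, stood at 166 and 7.17 CPM, −4.53, and at −4.59 in the other cells. Gm10076 (2.26), Gm10260 (1.52) and Gm8186 (1.09) are predicted genes, and the histone gene Hist1h2ap (1.51) is 1 of a family of near-identical copies, so their counts are uncertain. Phgdh, the first enzyme of serine synthesis, had 1.45, and Polr2l, a subunit shared by RNA polymerases, 1.12, with 1.43 and 1.08 in the other cells. Tbcb, a tubulin cofactor, had 0.97 and was under 2-fold.

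Of the 3152 genes, 1 had a log2 ratio that differed from that of the other cells by 2-fold or more, Gng11, a G protein subunit, with −0.20 against −1.22, named after its values were seen. Among the 11 higher genes, 4 with larger ratios here than in the other cells were picked after their values were seen, and all 4 passed the level filter through the library labelled cKO alone. Acta2, smooth muscle actin, was at 37.4 CPM (34.1 to 40.9) and 136 CPM (129 to 142), a log2 ratio of 1.86 (1.71 to 2.01), against 0.88 in the other cells, so its ratio exceeded theirs by 0.98 (0.83 to 1.13). Tagln, a smooth muscle actin-binding protein, had 1.44 against 0.51, an excess of 0.94 (0.76 to 1.11). Myl9, a myosin light chain, had 1.54 against 0.84, and S100a10, a membrane adaptor, 1.15 against 0.50. The levels of all 4 remained under those of the other cells in both libraries, for instance 136 against 457 CPM of Acta2 in the library labelled cKO. Acta2 UMIs lay in 99 and 193 progenitor-like cells, and the 10 cells with most held 57.2% and 40.8% of them. Acta2 stood higher in progenitor-like cells with Nkx2-5, with log2 ratios of 2.01 and 1.45. The heart muscle genes of the rule were higher under the label cKO too, by a median log2 ratio of 0.94 against 0.75 in the other cells. Without presumed doublets the Acta2 log2 ratio was 1.52, in Xist cells 1.52 and in Y-linked cells 2.18. After thinning, Acta2 was found in 7.06% and 19.7% of progenitor-like cells and in 4.07% and 10.1% of endothelial cells.

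The lower genes were spread over several functions. Fzd7, Efnb2, Adamts1 and Ctnnd1, among others, passed the level filter through the library labelled Ctrl alone. For such genes the filter itself set the lower sign. Fzd7, a Wnt receptor, stood at 65.8 CPM (61.4 to 70.5) and 28.4 CPM (25.4 to 31.6), −1.21, and at −1.13 in the other cells. Efnb2, an ephrin ligand, had −1.13 against −1.46, Fat1, a large cadherin, −1.17 against −1.07, and Atad2, a chromatin protein of dividing cells, −1.17 against −0.97. Ctnnd1 (p120 catenin) and Nlk, a kinase of the Wnt pathway, both had −1.06. Adamts1, a matrix protease, had −1.04, Nhs −1.02 and Clic4 −1.0. The long noncoding Gm26735 had −1.36 and Gm5900 −1.09. For each of these 11 genes the value in the other cells lay between −0.83 (Nlk) and −1.46 (Efnb2).

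**Figure D5:**
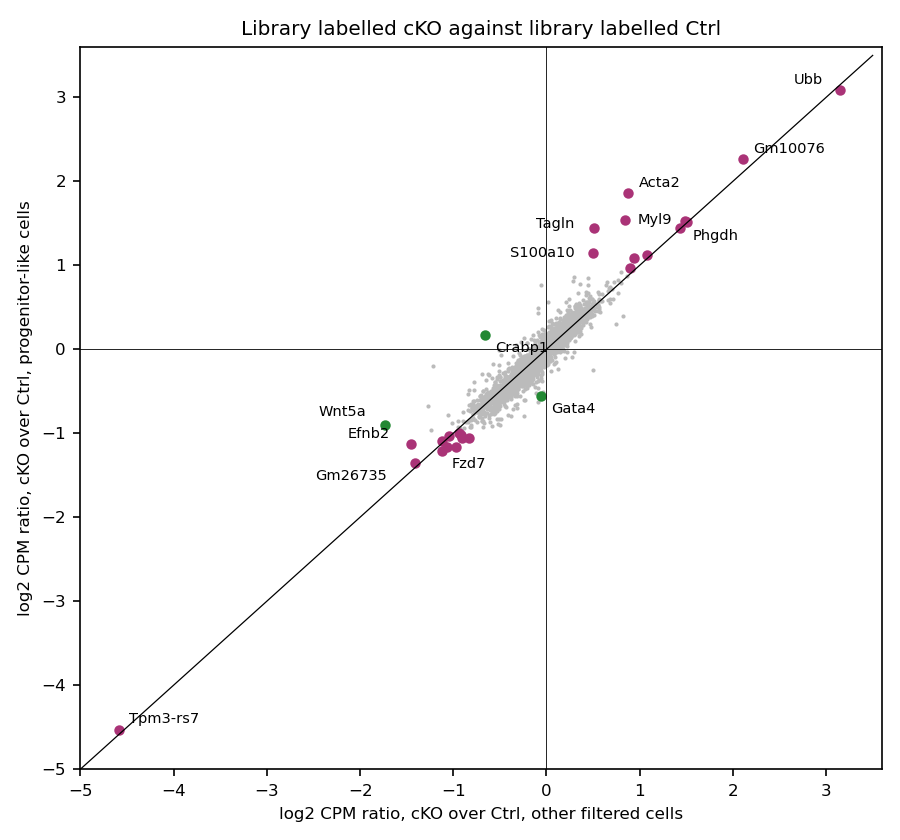
Each point is 1 of 3152 genes, with the log2 CPM ratio of the library labelled cKO over the library labelled Ctrl in the other filtered cells (horizontal) and in the progenitor-like cells (vertical), and the diagonal marks equal ratios. The 24 genes named by size are purple and 3 genes with unequal ratios green, and Acta2 (1.86 against 0.88) and Tagln (1.44 against 0.51) lie well above the diagonal while Ubb and Tpm3-rs7 lie on it.

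Of the 20 genes that lead the progenitor-like cells over the other cells, 18 were lower and 2, Wnt4 and Rspo1, higher in the library labelled cKO. Their median log2 ratio was −0.45, and −0.46 in the other cells. The median of all 3152 measured genes was −0.05, so lower values were common among them too, and their share was not counted. Cxcl13 had −0.63 (−0.73 to −0.53) against −0.09 in the other cells, and Unc5c −0.80 (−0.93 to −0.66) against −0.38. Aldh1a2 had −0.48 (−0.56 to −0.40), less negative than the −0.83 of the other cells. Wnt4 had 0.33 (0.21 to 0.46) against 0.03. Ptch1, Bmp4, Foxp1, Foxp2 and Isl1 differed from the other cells by less than 0.10 on the log2 scale.

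The 3 genes of the rule and the markers were read in the same way. Wnt2 stood at 223 CPM (215 to 231) and 203 CPM (195 to 211), −0.13, and Osr1 at 115 and 108 CPM, −0.09. Tbx5 stood at 141 CPM (134 to 147) and 98.5 CPM (92.9 to 104), −0.51 (−0.62 to −0.41), with −0.49 in the other cells. These genes chose the cells, so their levels are a description. Gata5 had −0.04 (−0.20 to 0.12). Rspo2 had −1.23 (−1.5 to −0.97) against −0.31 in the other cells, a difference of −0.92 (−1.23 to −0.61). The Rspo2 log2 ratio was −0.97 in Xist cells, −0.95 in Y-linked cells and −0.97 without presumed doublets. It lay under the filter on level, so it is not among the 23 genes.

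Pathway genes can be given by role, for the genes that passed the level filter. The median log2 ratio of all 3152 measured genes was −0.05, so lower values were common among them too. Nothing is read from the counts of lower genes in the lists alone. Where a gene passed the filter in a single library, the filter set the sign of its ratio. All 5 hedgehog genes had negative log2 ratios, none past 2-fold, with a median of −0.39, against −0.57 in the other cells. They were Smo (−0.36), Ptch1 (−0.80), Gli3 (−0.81), Gas1 (−0.17) and Foxf1 (−0.39). Under the filter, Gli1 had −0.56 (−0.90 to −0.22) and Hhip −1.12 (−1.46 to −0.80), with −0.79 and −0.90 in the other cells, though Hhip had 0.06 in the 106 and 83 cells that the rule took after thinning. The hedgehog genes that were high in progenitor-like cells thus stood lower in the library labelled cKO to about the same extent there as elsewhere. Of 7 Wnt genes, 3 were higher and 4 lower, with a median of −0.40 against −0.46, or 0.09 in the cells taken after thinning, and Fzd7 was past 2-fold. Wnt5a had −0.90 (−1.09 to −0.70) against −1.73 in the other cells, an excess of 0.83 (0.63 to 1.03). Sfrp1 had −0.40 and Lrp6 −0.55, while Fzd2 had 0.12. Under the filter, Axin2 had −1.13 (−1.49 to −0.77) against −0.87, and Lgr4, a receptor of R-spondins, −0.82 against −0.43.

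Retinoic acid genes were mixed. Of 4 measured genes, 3 had positive log2 ratios, among them Crabp2 (0.08) and Crabp1 (0.17), and Aldh1a2 (−0.48) had a negative one, a median of 0.08 (−0.00084 to 0.16) against −0.44 in the other cells. The binding protein Crabp1 had −0.66 in the other cells, so that its difference was 0.84 (0.67 to 1.0), although its log2 ratio was −0.26 in Xist cells and −0.01 in Y-linked cells taken alone. Crabp1 passed the level filter through the library labelled cKO alone, so the filter set its positive sign in the progenitor-like cells, on which the count and the median lean. Of 6 Hox genes, 5 were lower, with a median of −0.51 against −0.45, or 0.08 in the cells taken after thinning, where Hoxb1 itself had 0.08. Of 8 BMP genes, 6 were lower, with a median of −0.45 against −0.46, among them the receptors Bmpr1a (−0.74) and Bmpr2 (−0.87) and the target Id2 (−0.59), while Id1 had 0.06. All 3 measured FGF pathway genes were lower, Fgfr1, Fgfr2 and Spred1, with a median of −0.63 against −0.66. All 3 passed the level filter through the library labelled Ctrl alone, so the filter set their lower sign. Fgf10, the ligand of lung budding, lay under the filter with 16.7 and 6.14 CPM, −1.44 (−1.85 to −1.04), and −1.54 in the other cells. Among the genes that passed the filter, none in these lists was past 2-fold, and the list medians in the other cells were close except for retinoic acid.

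Of 9 measured heart field factors, 8 were lower and Mef2c (0.12) was higher, though Mef2c had −0.23 in the cells taken after thinning, with a median of −0.30 against −0.33 in the other cells. Gata4 was at 57.3 CPM (53.2 to 61.7) and 38.9 CPM (35.4 to 42.7), −0.56, against −0.06 in the other cells, a difference of −0.5 (−0.68 to −0.31). Nr2f2 had −0.79 against −0.41. Tbx20 lay under the filter with 22.1 and 12.1 CPM, −0.87 (−1.17 to −0.57) against −0.28, and Nkx2-5 with 15.4 and 14.7 CPM, −0.07 (−0.37 to 0.24) against 0.53. Shox2, a factor of the sinus node, went the other way, with 6.96 and 15.6 CPM, 1.17 (0.79 to 1.55) against 0.21, but −0.38 in the cells taken after thinning. Of 6 measured factors of foregut and lung mesoderm, all 6 were lower, with a median of −0.52 against −0.60. Nkx6-1, under the filter, had −0.95 (−1.17 to −0.74) against −0.65. Nkx2-3, a factor of gut mesenchyme, had 1 and 26 UMIs, against 0.749 and 6.67 CPM in the other cells.

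Leaving aside the muscle genes of the rule and the erythroid genes, both with positive medians, 14 lists had at least 3 measured genes. Of these, 12 had medians under 0, where the median of all measured genes was −0.05. The G2/M and S phase lists are among them, with intervals that hold 0. The others were the retinoic acid list and the epicardial list, whose 3 measured genes had a median of 0.44 against 0.58 in the other cells, or −0.25 when genes with at least 1 UMI in each library were used. Matrix genes (8 measured) had a median of −0.33 against −0.31 and guidance genes (7 measured, all lower) −0.54 against −0.63. Of the 7 guidance genes, 3 reached the level of the filter in both libraries. The rest reached it in the library labelled Ctrl alone, so the filter set their lower sign. Cell cycle genes were near 0, with −0.09 for 16 S phase genes and −0.03 for 20 G2/M genes. A list of 17 genes that the study discusses for its cKO, chosen by the study with these samples among others and so not independent, had 5 measured genes and a median of −0.55 against −0.63. In that list Sox9 had −0.67 and Isl1 −0.55, and Wnt5a differed most from the other cells.

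Markers of other cell types were summed to see what else the droplets held. The 7 muscle genes of the rule summed to 342 and 651 CPM in the progenitor-like cells, against 1779 and 2946 CPM in the other cells, and all 5 measured genes were higher under the label cKO, by a median log2 ratio of 0.94 against 0.75. Myl7 stood at 115 and 247 CPM and Actc1 at 58.6 and 113 CPM. Other contractile genes were mixed. Tnni1 had 0.77 and Tnnc1 1.54 (−1.55 in the cells taken after thinning), while Atp2a2, the calcium pump, had −0.5 and Myl2 had −1.22, or 0.99 without presumed doublets. Contractile genes outside the rule, 15 in all, summed to 344 and 376 CPM, against 796 and 1025 CPM. Smooth muscle genes summed to 104 and 264 CPM, against 453 and 753 CPM, with Myh11 at 0 in both. Endothelial genes summed to 77.7 and 103 CPM, against 229 and 175 CPM, with Cdh5 at 5.44 and 3.58 CPM and Egfl7 at 30.4 and 51.7 CPM. Endoderm genes summed to 7.53 and 6.66 CPM and neural crest genes to 41.5 and 27.1 CPM, of which Sox10 had 1 and 2 UMIs. Paraxial mesoderm genes summed to 47.5 and 64.0 CPM, with Meox1 at 10.1 and 26.5 CPM, epicardial genes to 263 and 286 CPM, mostly Tcf21, Krt8 and Krt18, septum transversum genes to 119 and 97.3 CPM, and branchiomeric muscle genes to 250 and 203 CPM, with Myf5 at 23 and 0 UMIs. Erythroid genes summed to 0.400 and 1138 CPM, against 11.5 and 11268 CPM in the other cells. The part of these in the differences between the libraries was not tested.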

How the data were processed

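Cells of 2 libraries, 1 per group, were analysed from count matrices of 27998 genes. The authors made the deposited counts, whole numbers of UMIs per gene and cell, with Cell Ranger 3.1.0 and mm10, per the submitters' processing notes, and the values are not normalised. Gene positions are those of GRCm38 in RefSeq. Cells under 1000 detected genes or over 10% mitochondrial UMIs were dropped, and the rule was applied to UMIs as counted. UMIs were summed over cells and divided by the set's total to give CPM. CPM and ratios carry exact Poisson or conditional 95% intervals, and shares exact Clopper-Pearson intervals, of counting error alone. A gene was measured with at least 50 CPM and 30 UMIs in either library (in both, against other cells). A ratio of at least 2-fold was counted, with no test, since each group had 1 library.

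The named genes were the 20 that led the progenitor-like cells over other cells and the 12 with the largest ratio in each direction between the libraries. The rule's own genes, mitochondrial, ribosomal protein and haemoglobin genes, Xist and Y-linked genes were left out of this order. Members of 24 gene lists were added. The rule, the markers and the lists were chosen with earlier results of these data known. Presumed doublets were cells with at least 2 UMIs each of Xist and of Y-linked genes, or in the top 5% of UMIs. No doublet caller was run. Interval and ratio calculations were tested on simulated data. Python 3.11.15, numpy 2.4.6, pandas 2.3.3 and scipy 1.17.1 were used.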

Additional observations from a re-analysis of the deposited data

Results flagged for a closer look

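Haemoglobin genes of primitive red cells were left out of the order of named genes and were far higher in the library labelled cKO. In its progenitor-like cells Hbb-y stood at 551 CPM and Hba-x at 413 CPM, while the progenitor-like cells of the library labelled Ctrl held 0 and 1 UMIs. Of the Hbb-y UMIs, 48.5% lay in 1 cell, and of the Hba-x UMIs 50.5%. After thinning, a UMI of Hbb-y was found in 32.8% of the progenitor-like cells labelled cKO and in 33.2% of the endothelial cells. Among the progenitor-like cells labelled cKO, Hbb-y stood at 1276 CPM in Xist cells and 82.5 CPM in Y-linked cells. Where these transcripts came from was not tested.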

How the results depend on the processing

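Thinning every cell to 5000 UMIs before the rule gave shares of 1.53% and 0.858%, a ratio of 0.561, with 27 genes at least 2-fold higher and 91 lower between the libraries. In those fewer cells the Wnt list median was 0.0860 and the Hox list median 0.0837, and log2 ratios turned for Hhip (0.0634), Hoxb1 (0.0772), Mef2c (−0.23), Tnnc1 (−1.55), Csrp3 (−0.28) and Shox2 (−0.38). Asking for at least 2 UMIs of each gene gave 3.27% and 1.66%, a ratio of 0.507. Without presumed doublets the shares were 6.70% and 4.46%. Xist cells alone gave 6.47% and 4.43%, with Msc at 0.15 and Crabp1 at −0.26. Y-linked cells alone gave 26 lower genes, 20 genes that led over other cells, Wnt2 at 0.0332 and Crabp1 at −0.00562. A muscle limit of 0.1%, chosen after seeing the data, gave a share of 4.52% in the library labelled cKO and Mef2c at −0.0266. The mean over cells of log2(CP10k + 1) gave 2 higher genes and 1 lower. Counting genes from 10 CPM and 10 UMIs gave 43 higher and 78 lower genes and 42 that led over other cells, and from 1 UMI in each library 376 and 612, with the epicardial list median at −0.25. The cause was not tested, but thinning left fewer cells and UMIs. Of the log2 ratios of named genes between the libraries, over all settings, 687 stayed inside the interval of the value reported, 211 moved further and 11 turned. That tally held 70 genes and not every listed one, such as Myl2. Of the ratios of the leading genes over other cells, 288 stayed, 152 moved and 0 turned. Without presumed doublets, 36 of those moved and 4 stayed. Of the list medians, 132 stayed, 41 moved and 3 turned.

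No paired analysis was possible because each group was 1 library, and leaving out a library would leave no comparison. Depth limits genes under the filter, and no interval covers differences between embryos.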
